A study of Arabidopsis thaliana with 40 samples.

Results

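The WRKY family of Arabidopsis thaliana was followed through 3 h of submergence in 9-day-old seedlings. Members were all nuclear loci whose symbol or description in the deposited count tables holds the letters WRKY, which gave 77 of 33592 loci. The count tables cover 16 libraries from whole seedlings of 2 genotypes: seedlings that overexpress SnRK1.1 with the K48M change in the Col-0 background, called K48M here, and Col-0 wild type. Each genotype was sampled after 3 h of submergence in the dark and after 3 h of dark alone, so darkness was common to all groups. SnRK1.1, also known as KIN10, is the catalytic subunit of the SnRK1 kinase, and the K48M form is known to lack kinase activity; the sources used here name neither the promoter that drives it nor how many transgenic lines were used. From each plant group, total mRNA and RNA bound to heavy polysomes, the fraction of mRNA carrying many ribosomes, were sequenced separately. Each of the 8 groups has 2 libraries, 1 in each of 2 library sets named ST_FR and LTF_GG. The series also compared i4g1-2 and 4A-15 seedlings with Col-0 in a second experiment of 24 samples, for which only the authors' fold changes were used here.

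WRKY proteins are plant transcription factors named for a conserved peptide in their DNA-binding domain, which is followed by a zinc finger. They bind a DNA element called the W-box, many of their own genes carry such elements, and several are switched on within minutes to hours by immune receptors through MAP kinase cascades. In Arabidopsis seedlings the family is best known for its part in defence against pathogens, in salicylic acid, jasmonate and abscisic acid signalling, and in leaf senescence.

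In the coding sequences of TAIR10.1, 13 members held the peptide at 2 places, 45 held it once with a zinc finger of the C2H2 type, 13 held it once with a C2HC finger, RRS1 held it once with neither finger pattern, and 5 did not hold it. Several members lie next to each other. WRKY67, WRKY64 and WRKY63 follow one another on chromosome 1 with gaps of 3858 and 13519 bases, WRKY55 and WRKY54 are 920 bases apart on chromosome 2, and WRKY18 lies 180 bases from AT4G31805 on chromosome 4. AT4G31805 was included by its description and is 1 of the 5 members without the peptide.

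Upstream sequences are shown for 6 of the members that rose in all 4 responses described further on, 4 in which the family's own binding element can be read and 2 strongly raised ones without it; they were chosen after their values were seen, from windows that overlap no other gene. Each window is the 250 bases before the annotated transcript start in TAIR10.1, 5′ to 3′ on the gene's strand. Capitals mark the W-box, searched as TTGACC or TTGACT on both strands, so that a site on the other strand reads GGTCAA or AGTCAA. WRKY15 (chr2:9924636-9924885, plus strand) holds W-boxes that begin at -131 and -98, counted in bases from the transcript start. WRKY29 (chr4:12291382-12291631, plus strand) holds a pair on opposite strands at -40 and -26. WRKY53 (chr4:12393983-12394232, minus strand) holds sites at -219 and -71, and WRKY11 (chr4:15291935-15292184, minus strand) holds 1 site at -106. WRKY40 (chr1:30383311-30383560, plus strand) and WRKY22 (chr4:524250-524499, minus strand) hold none in this window.
WRKY15: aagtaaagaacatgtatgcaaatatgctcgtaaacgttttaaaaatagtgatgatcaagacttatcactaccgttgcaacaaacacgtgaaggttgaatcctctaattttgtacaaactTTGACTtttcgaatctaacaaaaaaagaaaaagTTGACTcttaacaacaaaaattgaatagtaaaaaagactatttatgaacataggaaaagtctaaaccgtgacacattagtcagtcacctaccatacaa
WRKY29: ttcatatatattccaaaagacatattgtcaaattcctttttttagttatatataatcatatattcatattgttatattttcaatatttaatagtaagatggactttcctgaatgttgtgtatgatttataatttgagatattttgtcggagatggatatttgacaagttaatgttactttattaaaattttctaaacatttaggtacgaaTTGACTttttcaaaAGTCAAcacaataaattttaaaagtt
WRKY53: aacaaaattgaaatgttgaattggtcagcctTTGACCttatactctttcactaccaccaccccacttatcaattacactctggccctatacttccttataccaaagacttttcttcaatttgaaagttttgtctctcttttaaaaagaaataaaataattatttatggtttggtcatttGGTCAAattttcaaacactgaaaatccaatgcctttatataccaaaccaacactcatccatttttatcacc
WRKY11: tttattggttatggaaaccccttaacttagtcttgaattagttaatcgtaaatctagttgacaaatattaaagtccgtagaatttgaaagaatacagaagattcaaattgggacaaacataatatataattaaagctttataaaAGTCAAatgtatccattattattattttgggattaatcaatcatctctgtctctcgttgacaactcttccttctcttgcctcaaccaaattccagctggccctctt
WRKY40: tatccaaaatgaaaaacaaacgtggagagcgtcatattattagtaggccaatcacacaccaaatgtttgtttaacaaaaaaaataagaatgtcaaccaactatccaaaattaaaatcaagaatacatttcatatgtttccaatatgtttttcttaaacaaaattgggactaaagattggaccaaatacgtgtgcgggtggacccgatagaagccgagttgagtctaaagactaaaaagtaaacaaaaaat
WRKY22: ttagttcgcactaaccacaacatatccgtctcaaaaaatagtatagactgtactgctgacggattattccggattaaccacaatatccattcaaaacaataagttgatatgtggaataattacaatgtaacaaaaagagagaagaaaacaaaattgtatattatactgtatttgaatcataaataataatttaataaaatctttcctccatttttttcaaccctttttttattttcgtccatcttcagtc

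A W-box stood in this window for 45.8% of the 24 members that rose in at least 1 response, for 26.7% of the 30 members tested and not called, and for 28.4% of all 27443 protein-coding genes. The 24 and the 30 follow the calls with all 16 libraries. More than 1 W-box stood in 25% of the 24 members, in 6.7% of the 30, and in 6.2% of all protein-coding genes. The shorter core TTGAC, which every W-box contains, was found in 66.7%, 36.7% and 44.9% of the same lists. A match is a description of the letters and not a bound site, and the absence of one in WRKY40 and WRKY22 applies to this window only.

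The libraries held 3749306 to 6768995 reads assigned to genes, of which 1681 to 12988 fell on WRKY loci, so the highest members rest on many reads per library and the lowest called members on few. Ribosomal RNA took 0.87% to 38.1% of the gene reads, the highest share in the ST_FR Col-0 polysome dark library, which also had the fewest gene reads and the lowest share of reads matching 1 model, 54.4%. KIN10 read 1170.6 to 1546.0 CPM, read counts scaled to 1 common library total, in K48M total libraries, 232.3 to 411.6 CPM in K48M polysome libraries and 25.8 to 36.9 CPM in Col-0 libraries, which fits the labelled genotypes. The titles of the LTF_GG pair of K48M total libraries give the opposite conditions to the column headers and the authors' own index. The headers were followed, and ADH1, a classic hypoxia gene, read 1322.4 to 2724.0 CPM in all 8 libraries headed submergence and 26.8 to 48.8 CPM in all 8 headed dark. Calls, fold changes and differences that use K48M total libraries are therefore given with that pair and without it; without it each K48M total group has 1 library, which is assumed to vary like the libraries of the other groups. Summed shoot markers read 14968.7 to 23743.0 CPM in submerged and 24747.4 to 30593.0 CPM in dark K48M total libraries, which do not overlap, and 7442.5 to 20325.3 CPM in submerged and 9043.2 to 19502.0 CPM in dark libraries of the other groups. Summed root markers read 50.1 to 66.7 CPM in submerged and 68.3 to 81.2 CPM in dark Col-0 total libraries, which do not overlap, and overlapped in the other groups. Of these 8 markers none was at 0 in any library and 1 was called, the root hair gene COBL9, lower in K48M total RNA (log2 fold change -1.45, adjusted p = 0.0256; -1.37 and adjusted p = 0.137 without the pair). Without the pair the shoot gene RBCS2B was called lower, in K48M total (-1.38, adjusted p = 0.0474), K48M polysome (-1.1) and Col-0 polysome RNA (-0.87). COBL9, RBCS2B and the shoot gene LHCB2.1 read lower under submergence in both library sets of every group, and the other markers did not. The part of these markers in the WRKY results was not tested. In bulk seedlings fewer cells of a type and less RNA per cell cannot be told apart.

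The first question of the design was how submergence changed mRNA levels in each genotype and fraction. Many WRKY genes rose: 24 of the 77 members, of which 54 were tested, were higher under submergence in at least 1 of the 4 responses. None was lower. Of all loci 7.74% were called higher and 5.39% lower in at least 1 response. Such shares of all loci are taken here and below over the loci tested. Without the pair with conflicting titles 27 members were higher in at least 1 response and none was lower, against 10.4% and 8.81% of all loci. Of the members that reached the filter's level in dark libraries as well, WRKY40, WRKY22 and WRKY53 had the highest fold changes, with log2 values of 2.27 to 3.61 over the 4 responses (1.78 for WRKY22 in K48M total without the pair). WRKY63, WRKY46 and WRKY8, which rest on few dark reads, had fitted values in or above that range in at least 1 response. A further 10 members, WRKY63, WRKY46, WRKY6, WRKY7, WRKY11, WRKY15, WRKY25, WRKY26, WRKY27 and WRKY29, also rose in all 4 responses, which makes 13 such members, or 9 without the pair. A call here is an adjusted p below 0.05 in edgeR's quasi-likelihood test, with Benjamini-Hochberg adjustment over all 19024 loci tested.

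Reads sufficed to test 54 of the 77 members. Of the 23 untested members, 6 had no read in any library and no other exceeded 11 reads in a library or 68 reads over all 16. WRKY30, a gene linked to oxidative stress, had 38 reads over the 16 libraries, and WRKY12, which acts in stem pith, had 31. Among the 54 tested, 49 reached the filter's 1.89 CPM in at least 2 dark libraries and 5 did not, so those 5 were tested through their submerged libraries; 3 of the 24 called members are among them. Counts over the tested members do not describe the family as a whole.

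In K48M total mRNA 19 of 54 tested members rose and 0 fell, against 5.35% of all loci called higher and 3.34% called lower. Without the pair with conflicting titles, 9 of 55 tested members rose and 0 fell in K48M total mRNA, against 3.34% of all loci called higher and 1.84% called lower. In Col-0 total mRNA 21 members rose and 0 fell, against 5.11% higher and 2.64% lower among all loci. In K48M polysome RNA 18 rose and 0 fell, against 5.45% and 2.79%, and in Col-0 polysome RNA 18 rose and 0 fell, against 4.34% and 2.03%. The median log2 fold change over the tested members was 0.81 in K48M total (0.69 without the pair), 0.88 in Col-0 total, 0.82 in K48M polysome and 0.92 in Col-0 polysome RNA. Over all loci the corresponding medians were 0, 0.01, 0 and -0.01. Between 46 and 48 of the 54 tested members had a positive fold change in each response. Without the pair it was 44 of 55 in K48M total RNA. Of the 19024 loci tested, 9524, 9640, 9561 and 9301 were positive in the same order of responses. The members include the 5 that were tested through their submerged libraries.

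These counts moved with the libraries used. The shares of all loci called in the same fits are not given here. From the member counts alone, a loss of calls in the family cannot be told from a general loss of calls. The K48M total count was 10 without the LTF_GG dark library. The Col-0 total count was 9 and 8 without the ST_FR and the LTF_GG dark library and 12 without the LTF_GG submerged one. The K48M polysome count was 10 and 8 without the ST_FR and the LTF_GG dark library and 8 without the LTF_GG submerged one. The Col-0 polysome count was 9 and 6 without the ST_FR and the LTF_GG submerged library, and 11 and 4 without the ST_FR and the LTF_GG dark one. In these fits no member was called lower. WRKY63, WRKY40 and WRKY15 were called in all 4 responses whichever single library of the response was left out.

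**Figure D1:**
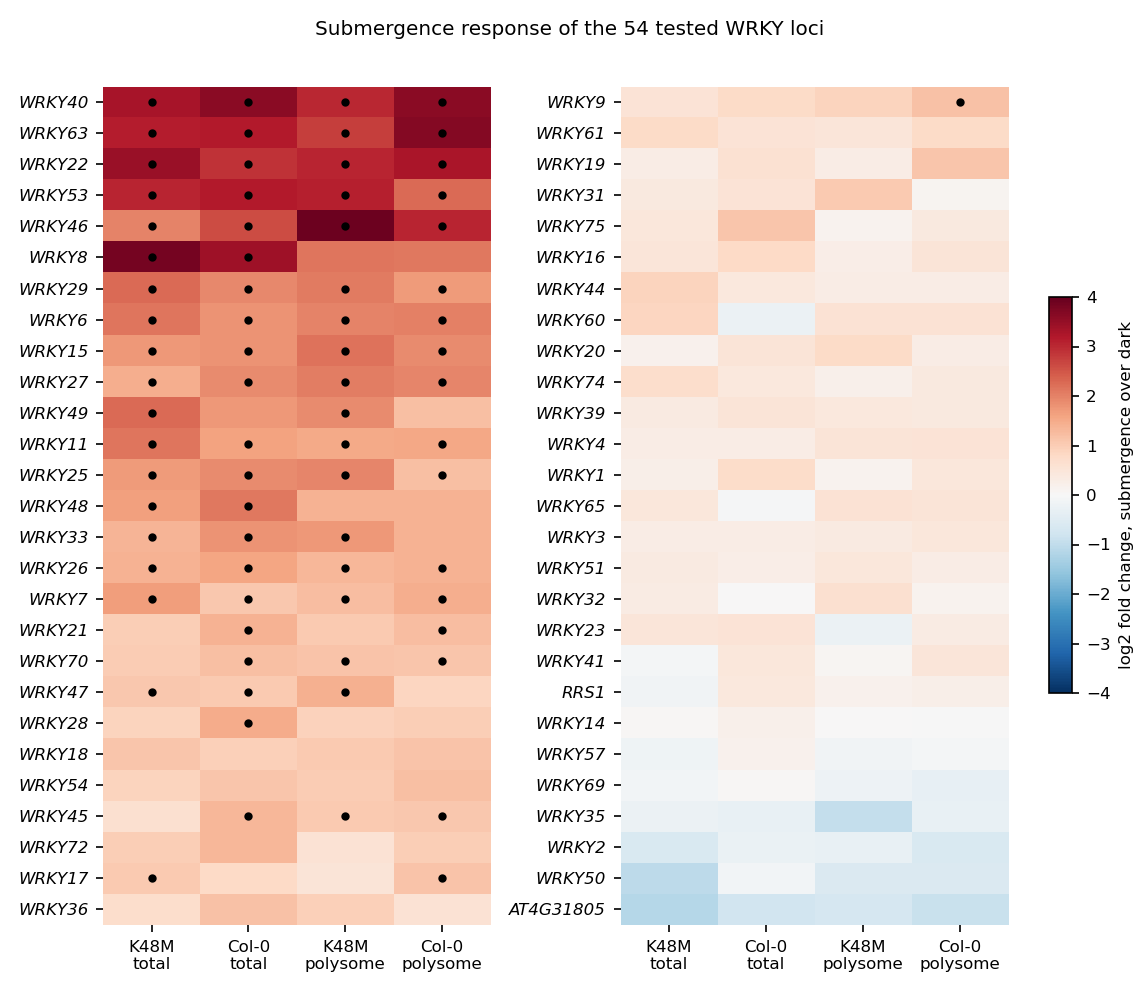
Log2 fold change, submergence over dark, of the 54 tested WRKY loci (rows, sorted by their mean over the 4 responses) in K48M total, Col-0 total, K48M polysome and Col-0 polysome RNA (columns). Colour gives the log2 fold change, a dot marks an adjusted p below 0.05 in edgeR's quasi-likelihood test, and all dots stand on higher values; AT4G31805 at the bottom runs from -1.13 to -0.66 with no dot.

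By protein structure, 17 of the 35 tested members with 1 domain and a C2H2 finger were called in at least 1 response, 4 of the 6 with a C2HC finger, 3 of the 11 with 2 domains, and neither RRS1 nor the only tested member without the peptide. Of all loci tested 7.74% were called higher in at least 1 response. Only 6 of the 13 members with a C2HC finger were tested. WRKY63 and WRKY46 among their called ones, and WRKY8 with a C2H2 finger, reached the filter's level in no dark library. They were thus tested through their submerged libraries, and the shares are not compared between structures. These counts use all libraries, and the split by structure was not made without the pair. In the paragraphs that follow, CPM values are scaled by library with edgeR's TMM factors, and in each pair the ST_FR library stands before the LTF_GG library. Fold changes are log2 values with their standard errors, submergence over dark.

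WRKY22 and WRKY29 are closely related factors known to act below a MAP kinase cascade in the response to bacterial flagellin. WRKY22 read 87.7 and 383 CPM in submerged K48M total libraries and 25.7 and 14.2 CPM in dark ones, and 132.7 and 143 CPM in submerged Col-0 total libraries and 23.9 and 13.02 CPM in dark ones. On polysomes WRKY22 read 86.4 and 203 CPM in submerged K48M and 20.6 and 12.99 CPM in dark K48M, and 98.3 and 180.1 CPM in submerged Col-0 and 16.3 and 12.8 CPM in dark Col-0. Every submerged library stood above every dark one, and the LTF_GG submerged K48M total library, 1 of the pair with conflicting titles, was the highest. The log2 fold change of WRKY22 was 3.44 ± 0.61 in K48M total (adjusted p = 0.00207), 2.88 ± 0.59 in Col-0 total (adjusted p = 0.00636), then 3.05 ± 0.61 in K48M polysome (adjusted p = 0.0049) and 3.25 ± 0.62 in Col-0 polysome RNA (adjusted p = 0.00419). Without the pair with conflicting titles it was 1.78 in K48M total RNA with an adjusted p of 0.101, so that call was lost.

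WRKY29 showed the same pattern at lower levels. It read 15.1 and 28.8 CPM in submerged K48M total libraries and 3.74 and 5.07 CPM in dark ones, and 13.5 and 27.6 CPM in submerged Col-0 total libraries and 4.97 and 5.64 CPM in dark ones. On polysomes it read 19.1 and 28.4 CPM in submerged K48M and 4.96 and 6.13 CPM in dark K48M, and 15.3 and 25.1 CPM in submerged Col-0 and 7.94 and 5.16 CPM in dark Col-0. Again no submerged library overlapped a dark one. Its log2 fold change was 2.27 ± 0.35 in K48M total (adjusted p = 0.000654; 2.02 and adjusted p = 0.0229 without the pair), 1.91 ± 0.33 in Col-0 total (adjusted p = 0.00192), then 2.09 ± 0.35 in K48M polysome (adjusted p = 0.00123) and 1.70 ± 0.36 in Col-0 polysome RNA (adjusted p = 0.00873). WRKY27, a relative known to affect symptoms of bacterial wilt, rose in all 4 responses with log2 fold changes of 1.46 to 2.05, and its K48M total value without the pair was 0.83 with an adjusted p of 0.345.

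WRKY40, WRKY18 and WRKY60 form a small clade of partly redundant factors known for repressing basal defence and for acting in abscisic acid signalling. WRKY40 read 24.5 and 18.1 CPM in submerged K48M total libraries and 2.60 and 1.75 CPM in dark ones, and 16.4 and 36.7 CPM in submerged Col-0 total libraries and 1.66 and 2.53 CPM in dark ones. On polysomes WRKY40 read 27.7 and 29.2 CPM in submerged K48M and 1.83 and 5.23 CPM in dark K48M, and 25.5 and 45.1 CPM in submerged Col-0 and 2.34 and 3.33 CPM in dark Col-0. The lowest submerged library stood well above the highest dark one. The log2 fold change was 3.29 ± 0.44 in K48M total (adjusted p = 0.000236; 3.23 and adjusted p = 0.00114 without the pair), 3.61 ± 0.43 in Col-0 total (adjusted p = 7.97e-05), then 3.01 ± 0.43 in K48M polysome (adjusted p = 0.000325) and 3.60 ± 0.46 in Col-0 polysome RNA (adjusted p = 0.000152). AT1G80850, which overlaps WRKY40 on the other strand, averaged 4.48 to 6.95 CPM under submergence and 2.53 to 4.31 CPM in the dark and was not called; whether the counting used strand is not given in the sources used here.

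Its relatives did not pass the test. WRKY18 had log2 fold changes of 1.1 in K48M total, 0.95 in Col-0 total, 1.04 in K48M polysome and 1.14 in Col-0 polysome RNA, with adjusted p from 0.0868 to 0.142, and 0.60 in K48M total without the pair. WRKY60 had 0.85, -0.24, 0.58 and 0.57 in the same order, with adjusted p from 0.285 to 0.842, and 1.05 in K48M total without the pair.

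**Figure D2:**
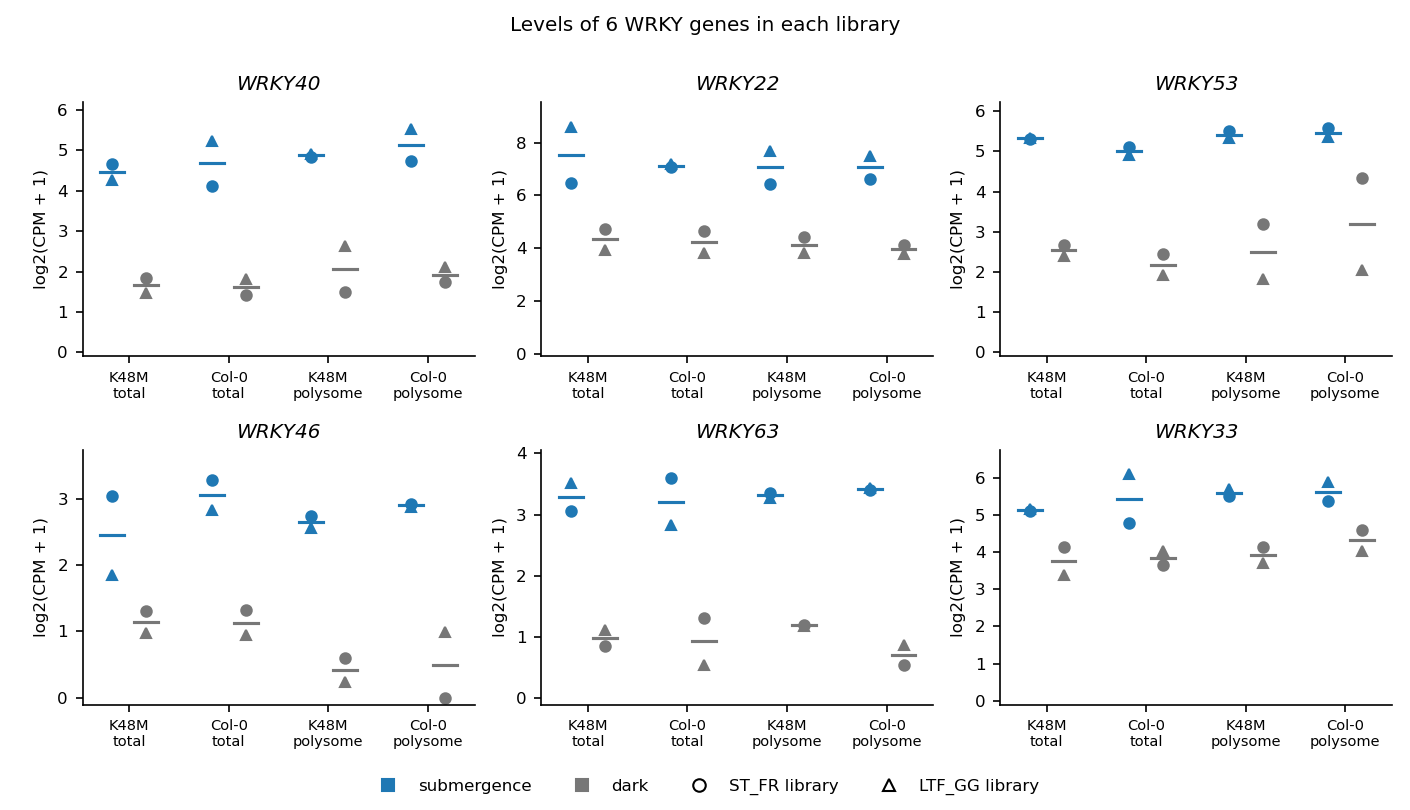
Level of WRKY40, WRKY22, WRKY53, WRKY46, WRKY63 and WRKY33 as log2(CPM + 1) in every library (y axes), for submerged (blue) and dark (grey) seedlings of each genotype and fraction; circles are ST_FR and triangles LTF_GG libraries, and bars are means of the 2. In each of these panels and groups the submerged libraries lie above the dark ones; WRKY46 read 0 CPM in the ST_FR Col-0 polysome dark library.

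The members with a C2HC finger that rose were WRKY53, WRKY46, WRKY63 and WRKY70. WRKY53 is known as a promoter of leaf senescence. It read 38.7 and 39.3 CPM in submerged K48M total libraries and 5.37 and 4.29 CPM in dark ones, and 33.8 and 29.2 CPM in submerged Col-0 total libraries and 4.47 and 2.76 CPM in dark ones. On polysomes WRKY53 read 44.3 and 39.4 CPM in submerged K48M and 8.09 and 2.53 CPM in dark K48M, and 46.7 and 40.2 CPM in submerged Col-0 and 19.1 and 3.16 CPM in dark Col-0. The submerged libraries were close to each other, and the ST_FR Col-0 polysome dark library was high among the dark ones while still below all submerged ones; it is the library with the highest ribosomal RNA share. The log2 fold change was 3.05 ± 0.48 in K48M total (adjusted p = 0.000789; 2.85 and adjusted p = 0.0178 without the pair), 3.16 ± 0.48 in Col-0 total (adjusted p = 0.000616), then 3.11 ± 0.49 in K48M polysome (adjusted p = 0.000725) and 2.27 ± 0.47 in Col-0 polysome RNA (adjusted p = 0.00739). AT4G23800, which overlaps WRKY53 on the other strand, had log2 fold changes of -1.12 to -0.52, so its direction was the opposite one.

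WRKY63, known as ABO3 and for its part in abscisic acid and drought responses, read 7.35 and 10.5 CPM in submerged K48M total libraries and 0.813 and 1.17 CPM in dark ones, and 11.1 and 6.12 CPM in submerged Col-0 total libraries and 1.49 and 0.461 CPM in dark ones. On polysomes WRKY63 read 9.25 and 8.69 CPM in submerged K48M and 1.31 and 1.26 CPM in dark K48M, and 9.62 and 9.83 CPM in submerged Col-0 and 0.467 and 0.832 CPM in dark Col-0. The groups did not overlap, and the dark values rest on 1 to 9 reads per library. Its log2 fold change was 3.15 ± 0.50 in K48M total (adjusted p = 0.000895; 3.15 and adjusted p = 0.0139 without the pair), 3.17 ± 0.49 in Col-0 total (adjusted p = 0.000669), then 2.78 ± 0.50 in K48M polysome (adjusted p = 0.00233) and 3.68 ± 0.57 in Col-0 polysome RNA (adjusted p = 0.000807). WRKY63's neighbours WRKY64 and WRKY67 had too few reads to be tested.

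WRKY46, a factor with known roles in defence and in the response to osmotic stress, was a low member. It read 7.21 and 2.62 CPM in submerged K48M total libraries and 1.46 and 0.974 CPM in dark ones, and 8.76 and 6.12 CPM in submerged Col-0 total libraries and 1.49 and 0.922 CPM in dark ones. On polysomes WRKY46 had 27 and 23 reads in submerged K48M libraries and 2 and 1 reads in dark ones, and 37 and 36 reads in submerged Col-0 libraries and 0 and 6 reads in dark ones. The groups did not overlap, but so few dark reads leave the size of the polysome change poorly determined. WRKY46 passed the test in K48M total (log2 fold change 1.98 ± 0.55, adjusted p = 0.0335; 2.29 and adjusted p = 0.0528 without the pair), in Col-0 total (2.62 ± 0.51, adjusted p = 0.00451), and on polysomes both in K48M (adjusted p = 0.0026) and in Col-0 (adjusted p = 0.00675). WRKY70, known as a node between salicylic acid and jasmonate signalling, rose more modestly. WRKY70's log2 fold change was 1.19 ± 0.30 in Col-0 total (adjusted p = 0.0242), then 1.14 ± 0.33 in K48M polysome (adjusted p = 0.041) and 1.12 ± 0.31 in Col-0 polysome RNA (adjusted p = 0.0413). In K48M total RNA its value was 1.02 ± 0.34 with an adjusted p of 0.0777, or 0.96 and 0.258 without the pair. WRKY54, its partner in salicylic acid signalling, had log2 fold changes of 0.88 to 1.20 with adjusted p from 0.206 to 0.348, and 0.42 in K48M total without the pair.

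Of the members with 2 domains, WRKY33, WRKY25 and WRKY26 rose. WRKY33 is known as a MAP kinase substrate that turns on camalexin synthesis, and all 3 are known to act together in heat tolerance. WRKY33 read 33.4 and 34.5 CPM in submerged K48M total libraries and 16.4 and 9.35 CPM in dark ones, and 26.3 and 67.6 CPM in submerged Col-0 total libraries and 11.6 and 15.3 CPM in dark ones. On polysomes WRKY33 read 44.5 and 50.4 CPM in submerged K48M and 16.4 and 12.1 CPM in dark K48M, and 40.6 and 57.8 CPM in submerged Col-0 and 23.4 and 15.3 CPM in dark Col-0. No dark library reached a submerged one of its group. The log2 fold change of WRKY33 was 1.37 ± 0.40 in K48M total (adjusted p = 0.0421; 1.03 and adjusted p = 0.272 without the pair), 1.79 ± 0.39 in Col-0 total (adjusted p = 0.00955) and 1.74 ± 0.40 in K48M polysome RNA (adjusted p = 0.0129). In Col-0 polysome RNA it was 1.38 ± 0.40 and just missed the test, with an adjusted p of 0.0533. AT2G38480, which overlaps WRKY33 on the other strand, had log2 fold changes of -2.28 to -0.73.

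WRKY25 read 63.9 and 34.8 CPM in submerged K48M total libraries and 16.3 and 14.03 CPM in dark ones, and 31.2 and 49.1 CPM in submerged Col-0 total libraries and 10.11 and 11.8 CPM in dark ones. On polysomes WRKY25 read 36.4 and 36.0 CPM in submerged K48M and 10.4 and 8.48 CPM in dark K48M, and 31.2 and 40.9 CPM in submerged Col-0 and 15.4 and 15.6 CPM in dark Col-0. Submerged and dark libraries of WRKY25 were apart in every group. Its log2 fold change was 1.71 ± 0.31 in K48M total (adjusted p = 0.00249; 1.98 and adjusted p = 0.00373 without the pair), 1.88 ± 0.31 in Col-0 total (adjusted p = 0.00136), then 1.94 ± 0.33 in K48M polysome (adjusted p = 0.00144) and 1.21 ± 0.32 in Col-0 polysome RNA (adjusted p = 0.0323). WRKY26 rose by log2 fold changes of 1.34 to 1.59, and its K48M total value was 1.33 with an adjusted p of 0.0886 without the pair. Of the reads of WRKY26 14.8% matched a single transcript model; its locus has several models, which were summed here. The 2-domain members WRKY2, which acts in seed germination and pollen, and WRKY44, which acts in trichomes and the seed coat, did not pass the test. WRKY2 had log2 fold changes of -0.61 to -0.28 with adjusted p of 0.412 to 0.764, and WRKY44 had 0.30 to 0.90 with adjusted p of 0.354 to 0.861. Without the pair their K48M total values were -0.76 for WRKY2 and 0.19 for WRKY44.

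WRKY11, WRKY17, WRKY15, WRKY7 and WRKY21 are called members of a clade whose proteins bind calmodulin, and only called members of it are named here. WRKY11 and WRKY17 are known as negative regulators of basal resistance to bacteria. WRKY11 read 98.7 and 132.9 CPM in submerged K48M total libraries and 28.9 and 25.7 CPM in dark ones, and 131 and 108 CPM in submerged Col-0 total libraries and 44.6 and 34.4 CPM in dark ones. On polysomes WRKY11 read 269 and 213 CPM in submerged K48M and 108 and 64.0 CPM in dark K48M, and 339 and 242 CPM in submerged Col-0 and 168 and 45.2 CPM in dark Col-0. Its dark polysome libraries were spread widely, with 168 CPM in the library of the highest ribosomal RNA share, and still lay below the submerged ones. The log2 fold change was 2.13 ± 0.40 in K48M total (adjusted p = 0.00301; 1.77 and adjusted p = 0.0407 without the pair), 1.60 ± 0.39 in Col-0 total (adjusted p = 0.0175), then 1.52 ± 0.38 in K48M polysome (adjusted p = 0.0217) and 1.56 ± 0.39 in Col-0 polysome RNA (adjusted p = 0.0231).

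WRKY15, known for its part in osmotic and oxidative stress, was the steadiest of the called members named from that clade. It read 98.1 and 163 CPM in submerged K48M total libraries and 34.3 and 41.9 CPM in dark ones, and 110.0 and 145 CPM in submerged Col-0 total libraries and 30.3 and 43.2 CPM in dark ones. On polysomes WRKY15 read 72.9 and 100.5 CPM in submerged K48M and 18.01 and 20.4 CPM in dark K48M, and 69.6 and 93.6 CPM in submerged Col-0 and 14.9 and 29.8 CPM in dark Col-0. All submerged libraries stood clear of the dark ones. Its log2 fold change was 1.74 ± 0.24 in K48M total (adjusted p = 0.000286; 1.52 and adjusted p = 0.00948 without the pair), 1.80 ± 0.24 in Col-0 total (adjusted p = 0.000198), then 2.16 ± 0.25 in K48M polysome (adjusted p = 5.83e-05) and 1.88 ± 0.25 in Col-0 polysome RNA (adjusted p = 0.000234).

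WRKY7 rose in all 4 responses, with log2 fold changes of 1.09 to 1.68 and, in K48M total without the pair, 1.25 with an adjusted p of 0.0375. WRKY17 passed in K48M total (1.06, adjusted p = 0.0315; 0.62 and adjusted p = 0.378 without the pair) and in Col-0 polysome RNA (1.14, adjusted p = 0.0296). WRKY17's K48M polysome value was 0.52 with an adjusted p of 0.32, and there its lowest submerged library, at 27.7 CPM, lay below its highest dark one, at 28.7 CPM. WRKY21 passed in Col-0 total (1.38, adjusted p = 0.0158) and in Col-0 polysome RNA (1.24, adjusted p = 0.0334), and had 0.98 in K48M total (1.41 without the pair) and 1.04 in K48M polysome RNA with adjusted p of 0.0782 and 0.0623.

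Among the other members with a C2H2 finger, WRKY6, known for roles in senescence and phosphate supply, rose in all 4 responses. It read 46.5 and 98.3 CPM in submerged K48M total libraries and 14.8 and 15.8 CPM in dark ones, and 45.1 and 69.7 CPM in submerged Col-0 total libraries and 15.2 and 17.2 CPM in dark ones. On polysomes WRKY6 read 30.9 and 82.4 CPM in submerged K48M and 9.66 and 18.04 CPM in dark K48M, and 54.3 and 75.8 CPM in submerged Col-0 and 17.3 and 14.8 CPM in dark Col-0. The submerged libraries differed among themselves, with LTF_GG the higher each time, yet each exceeded all dark ones. The log2 fold change was 2.15 ± 0.34 in K48M total (adjusted p = 0.000751; 1.66 and adjusted p = 0.0384 without the pair), 1.79 ± 0.33 in Col-0 total (adjusted p = 0.00291), then 1.97 ± 0.34 in K48M polysome (adjusted p = 0.00171) and 2.03 ± 0.35 in Col-0 polysome RNA (adjusted p = 0.00188).

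WRKY8, a factor known from antiviral defence, passed in both total responses with very few dark reads. In total RNA it had 18 and 13 reads in submerged K48M libraries and 2 and 0 in dark ones, and 13 and 16 reads in submerged Col-0 libraries and 1 and 2 in dark ones, too few for a fold change to be given. Its adjusted p was 0.0118 in K48M total (0.128 without the pair) and 0.0169 in Col-0 total RNA. WRKY45, a gene known from phosphate starvation, passed in Col-0 total (log2 fold change 1.34), K48M polysome (1.05) and Col-0 polysome RNA (1.09), and had 0.65 with an adjusted p of 0.192 in K48M total (0.72 without the pair). WRKY75, another gene of phosphate starvation, did not pass, with log2 fold changes of 0.14 to 1.12, and -0.12 in K48M total without the pair. WRKY28, known to bind the promoter of the salicylic acid gene ICS1, passed in Col-0 total RNA only (1.49, adjusted p = 0.0299), and had 0.90 to 0.99 in the other responses (0.41 in K48M total without the pair); the difference between responses was tested separately, as given further on.

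WRKY48, known as a negative regulator of basal defence, passed in K48M total (1.64, adjusted p = 0.0328; 0.73 and adjusted p = 0.45 without the pair) and in Col-0 total RNA (2.1, adjusted p = 0.009). WRKY49 passed in K48M total (2.25, adjusted p = 0.0211; 1.37 and adjusted p = 0.197 without the pair) and K48M polysome RNA (1.88, adjusted p = 0.0433). For Col-0 the WRKY49 value in total RNA was 1.72 ± 0.54 with an adjusted p of 0.0632 (0.0214 without the pair). In Col-0 polysome RNA the libraries of WRKY49 overlapped, with 14.1 and 3.16 CPM under submergence and 7.01 and 1.16 CPM in the dark. WRKY47 passed in K48M total (1.07; 0.76 and adjusted p = 0.272 without the pair), Col-0 total (1.05) and K48M polysome RNA (1.43). WRKY9 passed in Col-0 polysome RNA (1.17, adjusted p = 0.0328) and had 0.56 to 0.88 elsewhere (0.69 in K48M total without the pair).

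The other 30 tested members were not called in any response with all 16 libraries. Their highest log2 fold changes were 1.1 for WRKY18 in K48M total, 1.34 for WRKY72 in Col-0 total, 1.04 for WRKY31 in K48M polysome and 1.20 for WRKY54 in Col-0 polysome RNA. The lowest values came from AT4G31805, with -1.13 in K48M total (-1.11 without the pair), -0.76 in Col-0 total, -0.66 in K48M polysome and -0.89 in Col-0 polysome RNA, and from WRKY50 and WRKY35. RRS1, WRKY16 and WRKY19, in which the WRKY domain is joined to an immune receptor, were among the 30. Without the pair some of the 30 were called, such as WRKY16 (0.78) and WRKY36 (1.19) in Col-0 total RNA.

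Levels can be compared between members only per length, for which the authors' RPKM values (reads scaled by transcript length and by mapped reads) were summed over the models of a locus. In submerged K48M total RNA the highest means were WRKY22 with 164.85 ± 121.4 RPKM, WRKY15 with 96.16 ± 12.75 RPKM and WRKY11 with 92.95 ± 1.57 RPKM (SD, n = 2 throughout). The ST_FR library alone, which is outside the pair with conflicting titles, had 79.0 RPKM of WRKY22, 87.1 RPKM of WRKY15 and 94.1 RPKM of WRKY11, so WRKY22 did not lead there. Col-0 gave the same leading members, WRKY22 with 126.41 ± 42.97 RPKM, WRKY15 with 117.6 ± 55.32 RPKM and WRKY11 with 112.31 ± 17.32 RPKM. Those neighbours in the order do not differ beyond their spread. In dark total RNA WRKY65, a member that was not called in any response, led instead, with 36.22 ± 21.13 RPKM in K48M (21.3 RPKM in the ST_FR library, below WRKY15 with 28.0 RPKM) and 57.47 ± 22.35 RPKM in Col-0. On polysomes WRKY11 had the highest mean in every group, with 220.91 ± 35.36 RPKM in submerged K48M and 73.37 ± 11.89 RPKM in dark K48M, and 258.98 ± 25.8 RPKM in submerged Col-0 and 64.31 ± 26.29 RPKM in dark Col-0. In the LTF_GG dark Col-0 polysome library WRKY65 stood above it, with 71.7 RPKM beside 45.7 RPKM of WRKY11. By mean, WRKY22 followed WRKY11 on polysomes under submergence, at 125.87 ± 72.35 RPKM in K48M and 122.74 ± 65.89 RPKM in Col-0.

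**Figure D3:**
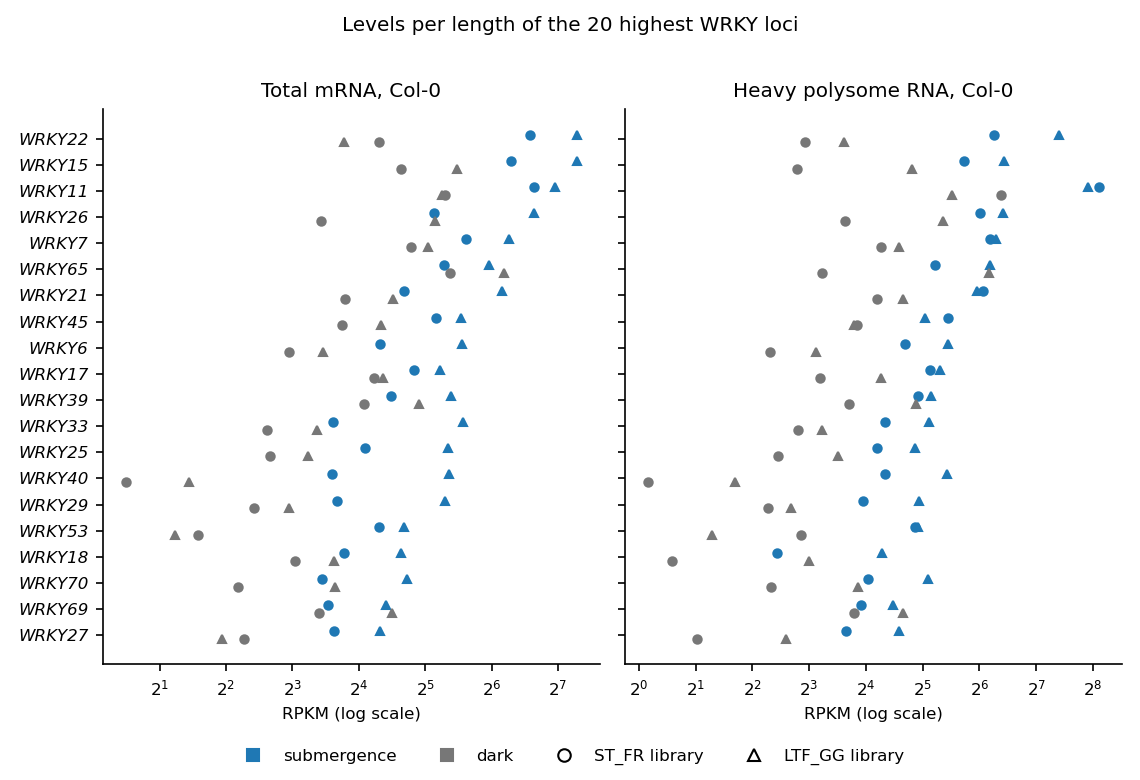
Authors' RPKM (x axes, log scale) of the 20 WRKY loci with the highest submerged mean in Col-0 total RNA, in Col-0 total (left) and polysome RNA (right); blue is submergence, grey is dark, circles are ST_FR and triangles LTF_GG libraries. In total RNA WRKY22 stands highest, at 96.03 and 156.8 RPKM under submergence, while submerged and dark libraries of WRKY65 are mixed.

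The second question was whether K48M seedlings answered submergence differently from Col-0 seedlings. No WRKY locus passed the test for such a difference. In total mRNA 0 of 54 members and 0% of all loci were called for a difference between the genotypes' responses, taken as K48M minus Col-0. In polysome RNA it was likewise 0 of 54 members and 0% of all loci. No member reached an unadjusted p below 0.05 in edgeR's quasi-likelihood test in either comparison, against 166 and 128 of all loci, and DESeq2 called 0 members in both. Without the pair 0 of 55 members and 0 of all loci were called in total RNA, with 2 members and 505 of all loci at an unadjusted p below 0.05.

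The median difference over the tested members was -0.15 in total (-0.31 without the pair) and -0.03 in polysome RNA on the log2 scale, beside -0.02 and 0.01 over all loci. The extreme members in total RNA were WRKY60 at 1.09 and WRKY50 at -0.96 (1.29 and -3.07 without the pair), and on polysomes WRKY31 at 0.94 and WRKY63 at -0.90. WRKY50 had 81 reads over all 16 libraries, and its standard error was 1.59 with the pair. Without the pair its K48M total response compares 1 submerged read with 9 dark reads. WRKY22 differed by 0.56 in total RNA (95% interval -1.25 to 2.37; -1.13 ± 0.72 without the pair) and by -0.20 on polysomes (-2.05 to 1.65). WRKY15, the member with a narrow spread, differed by -0.06 (-0.78 to 0.66; -0.29 ± 0.36 without the pair) and by 0.28 (-0.47 to 1.04). For the 24 called members the median half-width of these intervals was 1.09 in total and 1.11 in polysome RNA. The intervals are not adjusted for the number of loci tested, whereas a call is. Differences well above 1 on the log2 scale in a single member could therefore also be missed at this depth and replication. The test does not show that the genotypes act alike.

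**Figure D4:**
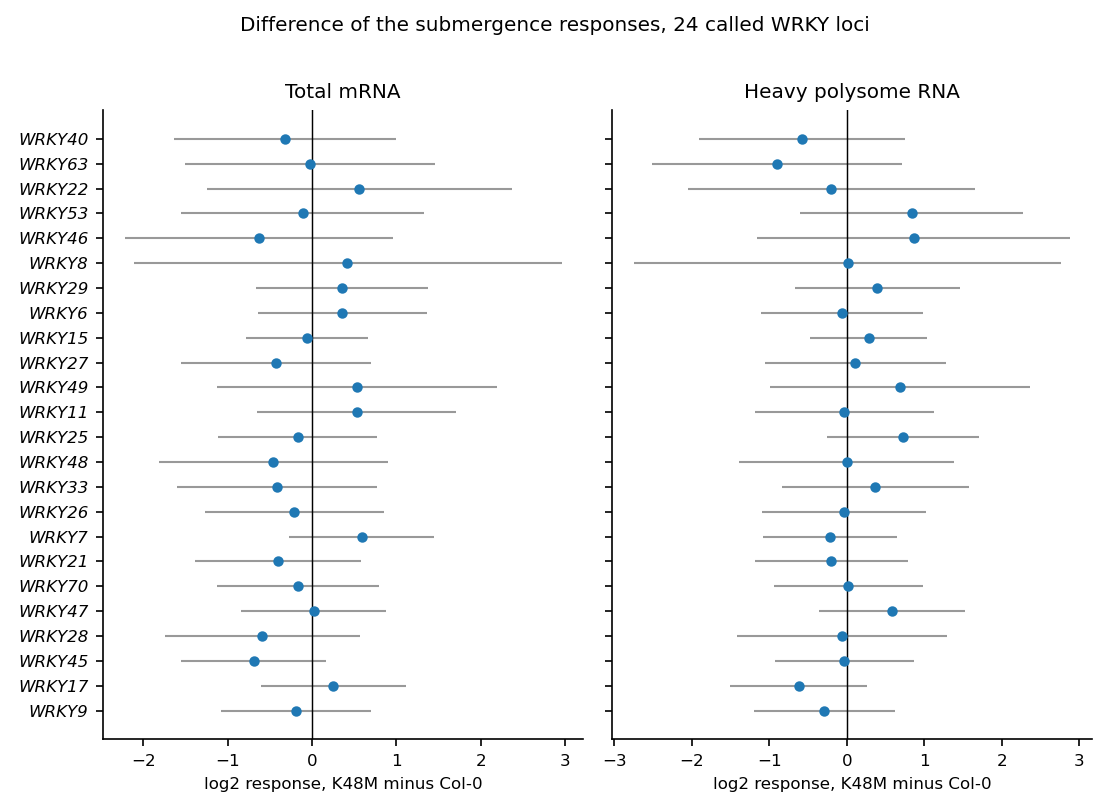
Difference of the log2 submergence responses, K48M minus Col-0 (x axes), of the 24 WRKY loci called in at least 1 response (rows), in total mRNA (left) and heavy polysome RNA (right). Points are estimates and lines 95% intervals; each of the lines crosses 0, as for WRKY22 in total RNA (-1.25 to 2.37).

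The third question was whether submergence changed how WRKY transcripts were loaded on polysomes, taken as the response in polysome RNA less that in total RNA. In K48M 0 of 54 members and 0% of all loci were called, and in Col-0 0 of 54 members and 0% of all loci. No member reached an unadjusted p below 0.05 in either genotype, against 221 of all loci in K48M and 132 in Col-0, and DESeq2 called 0 members in both. Without the pair 0 of 55 members were called in K48M and 0 had an unadjusted p below 0.05, against 575 of all loci. The median over the tested members was 0.04 in K48M (0.24 without the pair) and -0.13 in Col-0, beside 0.02 and -0.02 over all loci. WRKY46 in K48M had the smallest p, 0.0668, with a difference of 1.93 ± 0.90 (1.62 ± 0.91 without the pair) that rests on 3 dark polysome reads. WRKY40 showed -0.28 ± 0.62 in K48M (-0.18 ± 0.56 without the pair) and -0.02 ± 0.63 in Col-0, and WRKY53 showed 0.06 ± 0.68 in K48M (0.25 ± 0.78 without the pair) and -0.89 ± 0.67 in Col-0. TMM scaling centres each fraction on its own loci, so a loading change shared by most mRNAs cannot be seen in these values.

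Around the family, 22 genes of the pathway were read as a list: 10 MAP kinase cascade genes, 4 VQ proteins that bind WRKY factors, and 8 known WRKY targets. In K48M total RNA 4 of the 22 rose (2 without the pair), in Col-0 total 3, in K48M polysome 4 and in Col-0 polysome 4, and 0 fell in any, beside the 5.35% (3.34% without the pair), 5.11%, 5.45% and 4.34% of all loci called higher. The list's median log2 fold changes were 0.54 (0.55 without the pair), 0.46, 0.86 and 0.47 in that order. The 8 targets did not rise as a set in Col-0, where their median log2 fold change was -0.2 for total mRNA and -0.38 on polysomes. In each of these, 3 targets were positive and 5 negative. For K48M their median was 0.19 for total mRNA (5 positive, 3 negative) and 0.58 on polysomes (6 positive, 2 negative). These target medians use all libraries and were not taken without the pair. Only 1 target was called in each response. FRK1, a receptor-like kinase gene used as a reporter of WRKY22 and WRKY29 activity in flagellin signalling, was that target and rose in all 4 responses. FRK1 read 6.93 and 13.8 CPM in submerged K48M total libraries and 0.488 and 0 CPM in dark ones, and 6.62 and 16.2 CPM in submerged Col-0 total libraries and 0.497 and 0.346 CPM in dark ones. Its K48M total call was kept without the pair (adjusted p = 0.0099). MPK4, a MAP kinase that holds WRKY33 in a complex, also rose in all 4, with log2 fold changes of 1.27 in K48M total (1.51 without the pair), 1.18 in Col-0 total, 1.30 in K48M polysome and 1.07 in Col-0 polysome RNA.

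The other called genes of the list were fewer. SIB1, a VQ protein that binds WRKY33, rose in K48M total, K48M polysome and Col-0 polysome RNA, and its K48M total call was lost without the pair (1.52, adjusted p = 0.0914). MPK11, a kinase related to MPK4, rose in Col-0 total and K48M polysome RNA, where it read 1.89 and 0.848 CPM in submerged libraries and 0 CPM in both dark ones. MEKK1, the kinase at the head of the MPK4 cascade, rose in Col-0 polysome RNA, and JAV1, a VQ repressor of jasmonate defence, rose in K48M total RNA only (1.21, adjusted p = 0.0361), a call lost without the pair (0.88, adjusted p = 0.204).

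The authors' deposited table gives log2 fold changes per transcript model for 8391 models, 44 of them from 41 WRKY loci, in 4 lines. In total mRNA the median of the WRKY models in the authors' deposited table was 1.45 in K48M, 1.43 in i4g1-2, 1.43 in 4A-15 and 1.34 in Col-0, beside -0.10, -0.08, -0.06 and -0.13 over all models. WRKY53 in the authors' deposited table had 3.59 in K48M, 3.84 in i4g1-2, 3.05 in 4A-15 and 3.67 in Col-0 total mRNA, and WRKY22 had 3.47, 2.94, 3.29 and 3.51. In polysome RNA the median of the WRKY models in the authors' deposited table was -0.18 in K48M, 0.86 in i4g1-2, 0.69 in 4A-15 and 1.40 in Col-0. Over all models of the authors' deposited table the polysome medians were -1.51, -0.94, -1.01 and -0.29, so the WRKY models stood 1.32, 1.80, 1.70 and 1.70 above them. The lines are therefore set on different centres in polysome RNA, and values between them carry that shift.

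The authors also list 959 models as controlled by SnRK1 and not by eIFiso4G1, 12 of them from WRKY loci. In the authors' deposited table all 12 had a lower polysome fold change in K48M than in Col-0, such as WRKY11 with 0.04 in K48M and 1.94 in Col-0 and WRKY29 with 0.65 in K48M and 2.08 in Col-0. The median over all models was also lower in K48M, at -1.51 against -0.29 in Col-0. The share of all models lower in K48M was not counted. The list comes from this series itself, so the shared direction of the 12 is not a separate result about WRKY loci. In edgeR's quasi-likelihood fit of the counts, whose all-loci polysome medians were 0 in K48M and -0.01 in Col-0, the same 12 loci had differences of -0.62 to 0.58, each with an adjusted p of 1. The fit sums all models of a locus, whereas the authors' values are for single models. For WRKY4 the listed model had -2.86 in K48M and 1.99 in Col-0 polysome RNA, and its other model had -1.84 and -2.96. Each of 7425 shared models was also set against the fitted value of its locus. The authors' K48M polysome values lay on a line with a slope of 0.86 and an intercept of -1.31. Their Col-0 polysome values lay on one with a slope of 0.86 and an intercept of -0.02.

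**Figure D5:**
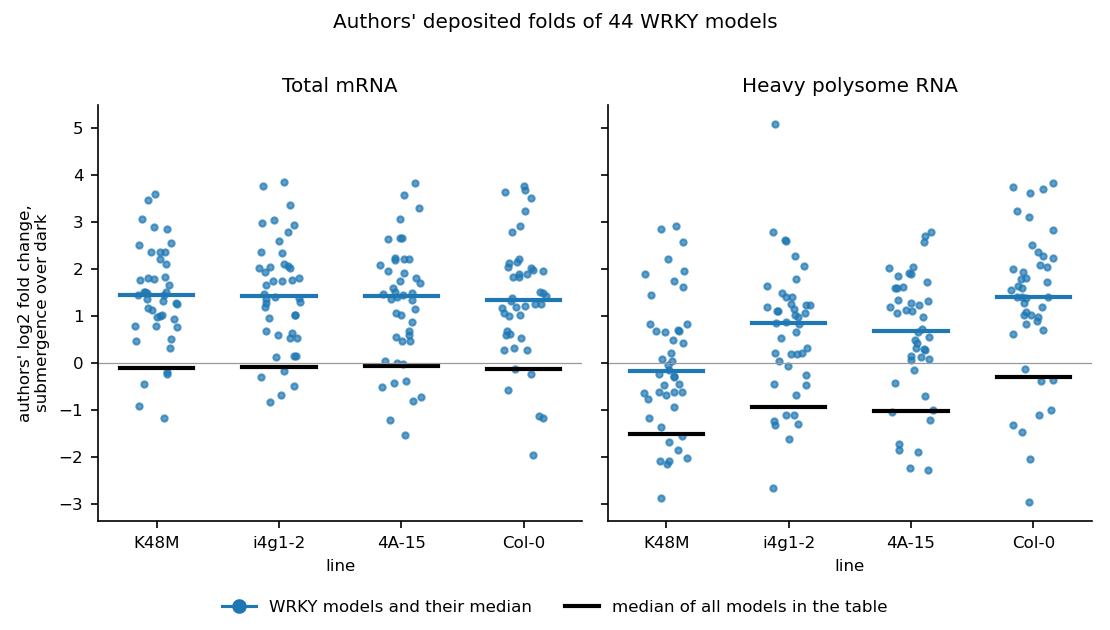
Authors' deposited log2 fold changes, submergence over dark (y axis), of 44 WRKY transcript models in K48M, i4g1-2, 4A-15 and Col-0, in total mRNA (left) and heavy polysome RNA (right). Blue bars are medians of the WRKY models and black bars medians of all 8391 models; in polysome RNA both bars are lowest in K48M, at -0.18 and -1.51.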

How the data were processed

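Per the labels, RNA from whole seedlings was sequenced on the Illumina HiSeq2000 as total mRNA and heavy polysome RNA. Per the submitters' processing notes the reads were set against TAIR10; aligner, counter, their settings and any use of strand: not given in the sources used here. For each transcript model the authors deposited raw read counts and the RPKM values they had computed. The authors also deposited log2 fold changes per model, whose log base was read from their values, and a translational status score whose formula is not stated. Their fold changes, per the file headers, came from a test with tagwise dispersions.

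Counts were summed over the models of a locus. Of each table, 11 rows had a blank identifier and were not analysed here; they held no more than 0.0084% of the reads of any library. Of 33592 loci, 19024 passed edgeR's filterByExpr (min.count 10, min.total.count 15). edgeR 4.0.16 in R 4.3.3 fitted 8 groups and the library set by quasi-likelihood with TMM factors (0.572 to 1.339), 7 residual degrees of freedom and a biological coefficient of variation of 23.3%. Interaction contrasts tested differences. The series names 2 independent biological repeats; p-values measure the spread between these libraries. The standard error of a fold change is its size divided by the square root of F, and that of a difference combines both responses. Groups are given by column header. DESeq2 1.42.0, other scalings, filters, unique reads, the titles' conditions, 14 libraries, no library set term and leaving out each library were the alternatives.

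Genes named are all called members, a fixed list of 21 WRKY genes and called genes of the 22-gene pathway list; members outside these that are named as extremes of a range, by level or by structure were picked after their values were seen. The members and lists were chosen with earlier results of these data known. Upstream windows came from the TAIR10.1 genome and RefSeq annotation, in which all 77 members were found; no coordinates of another build were used.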

Additional observations from a re-analysis of the deposited data

How the results depend on the processing

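Without the pair of K48M total libraries whose titles conflict, the count of WRKY loci that rose was 9 in K48M total RNA, with the same 9 among the 19 called with all libraries. With the conditions of the titles in place of the headers, 0 members and 0 of all loci were called by edgeR in K48M total, Col-0 total, K48M polysome and Col-0 polysome RNA, with 1, 24, 23 and 22 members at an unadjusted p below 0.05; DESeq2 was not run on the titles' conditions. Under those conditions 15 called K48M total log2 fold changes turned negative, each with an adjusted p of 1: -1.87 for WRKY22, -0.88 for WRKY48, -0.74 for WRKY49, -0.68 for WRKY11, -0.61 for WRKY27, -0.56 for WRKY7, -0.50 for WRKY6, -0.47 for WRKY53, -0.46 for WRKY17, -0.40 for WRKY63, -0.38 for WRKY29, -0.31 for WRKY47, -0.23 for WRKY15, -0.18 for WRKY33 and -0.05 for WRKY8. ADH1 sides with the headers in all libraries.

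With no replicate block (no library set term), 11 members rose in K48M total, 13 in Col-0 total, 12 in K48M polysome and 8 in Col-0 polysome RNA, against 19, 21, 18 and 18 with it. The shares of all loci called are not given for this fit or for the fits with a library left out. The deviations of same-set libraries from their group means correlated by -0.16 to 0.77 over 28 pairs of groups and 12234 loci, and by 0.34 to 0.77 over the 15 pairs without K48M total groups. Leaving out 1 library at a time gave 10 to 19, 8 to 19, 8 to 12 and 4 to 11 called members in the same 4 responses, and 9 of 19, 5 of 21, 6 of 18 and 3 of 18 calls were kept in every such fit. The 4 difference counts were 0 under every alternative. DESeq2, RLE scaling, TMM without organelle and ribosomal RNA loci, no filter on low counts and unique reads moved no member count by more than 1.5 times, and no scaling moved the median of all loci by more than 0.03. Low dark read numbers limit WRKY8, WRKY46 and WRKY63.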

Other observations

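WRKY16, in which a WRKY domain is joined to an immune receptor, appears in the authors' deposited table of translational status scores. Its authors' score was -3.42 in submerged and -1.83 in dark K48M, -3.43 in submerged and -5.35 in dark i4g1-2, -3.89 in submerged and -1.36 in dark 4A-15, and -2.49 in submerged and -5.85 in dark Col-0. The score was higher under submergence in i4g1-2 and Col-0 and lower in K48M and 4A-15. The deposited table gives 1 value per line and condition, so no error can be given. In the counts of all 16 libraries WRKY16 was tested and not called in any of the 4 responses. Without the pair with conflicting titles it was called in Col-0 total RNA, with a log2 fold change of 0.78.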
